A study of Oryza sativa Indica Group with 24 samples.

Results

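Leaves of field-grown rice (Oryza sativa, Indica Group, cultivar Nagina 22) collected 71 days after germination, at the seed-setting stage, were compared between drought-stressed and well-watered plots on 3 spotted complementary DNA arrays. All arrays of that day with spot intensities were taken, which made 3 of the 23 arrays with intensities used here; the other 20 came from 7 other days between 45 and 75. Each array carried RNA of 1 stressed plot in the second channel, and RNA of the well-watered control of the same age in the first channel, each with its own Alexa dye. The stressed plots were held at 60% of field capacity (mild), 40% (moderate) and 15% (severe), the control at 100%, where field capacity is the water a soil keeps after draining. The labels give a treatment duration of 33 days for all 3. Per the labels, several leaves of a plot were pooled. There was 1 array per level, so the levels served as the only repeats. The labels also call the plants seedlings and name panicles beside leaves in the extraction protocol; the leaf label was taken as given. Whether the 3 arrays used 1 control extract is not stated; if they did, a deviation of that extract entered all 3 ratios. The dyes were never swapped.

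During seed setting, rice leaves supply sugars and nitrogen to the filling grain, and the leaf messenger RNA of a cereal is dominated by a small number of very abundant transcripts, many of them for photosynthesis. Water deficit at this stage is known to hasten leaf ageing and to curb photosynthetic gene expression. Nagina 22 is known as a drought-tolerant cultivar. Each array held 7296 clones printed in duplicate. Clones carry plate names only, in 3 sets whose names begin with MK, NL_ or NL followed by a number. None of these names occurred among 39387 rice genes of a reference table, so clones are given by name, no gene role is attached to them, and the leaf label could not be set against marker genes. Clones of a library can be copies of 1 transcript; which ones are was not tested.

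The brightest transcripts of well-watered leaves stood far lower in mildly and severely stressed leaves than in well-watered leaves on day 71. To follow them without using day 71 for the choice, clones were ranked by control-channel intensity on the 20 arrays of the other days, and the top decile was taken, 730 clones. That ranking used a channel of the ratios of the other days and none of day 71. Their median log2 ratio of stress over control was -2.39, -0.51 and -3.19 under mild, moderate and severe stress. Fewer cells holding a transcript and less transcript per cell cannot be told apart in such leaf extracts. On the 20 arrays of other days the same median lay between -0.82 and 0.05. Averaged over the arrays of a day, it was -2.03 ± 1.37 (SD, n = 3) on day 71 and -0.23 ± 0.23 (SD, n = 7 days) on the other days, day 71 being the lowest of the 8. This is given as a description, with no test. The moderate array of day 71 lay inside the range of the other days, and the mild and severe arrays lay below it.

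**Figure D1:**
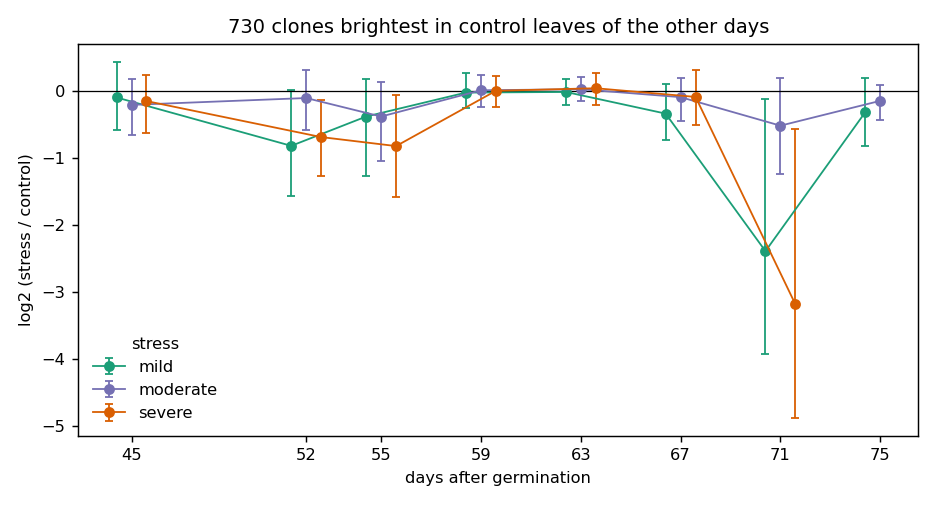
Median log2 ratio of stress over control (points) with the quartiles over clones (bars) for the 730 clones brightest in control leaves of the other days, by day after germination and stress level; the severe array of day 75 was not used. Mild and severe stress stood at -2.39 and -3.19 on day 71, and no array of another day fell below -0.82.

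The lowest medians lay at the bright end. In the 8 dimmest deciles the day 71 medians stayed between -0.07 and 0.19 at every level. In decile 9 they were -0.12, 0.05 and -0.36 under mild, moderate and severe stress. The loess curve that removed dye bias was fitted to these same clones. In the stress channel 47.2%, 59.4% and 39.4% of clone spots were above the 95th percentile of the unprinted positions on the 3 arrays. Medians near 0 among dim clones thus follow in part from the method, and a fall could be hidden there. Under severe stress the share lower by 2-fold or more was 4.11% in decile 1, 23.8% in decile 8 and 36.1% in decile 9. Of the top decile, 59.5%, 34.2% and 68.6% of clones were lower by 2-fold or more under mild, moderate and severe stress, against 15.0%, 6.32% and 19.5% of all clones. Within the top decile, cut into 10 steps of 73 clones, steps 6 to 10, the brighter ones, had lower medians than steps 1 to 5 at each level. The dimmest step had -0.33, 0.04 and -0.60 under mild, moderate and severe stress. The second brightest step had -4.09, -0.82 and -5.06, and the brightest, less low at each level, had -3.67, -0.51 and -4.86. Under moderate stress the lowest median, -1.04, was in steps 7 and 8. In the brightest step 67 of 73 clones had a mean over the 3 arrays that was lower by 4-fold or more, against 13 of 73 in the dimmest step.

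**Figure D2:**
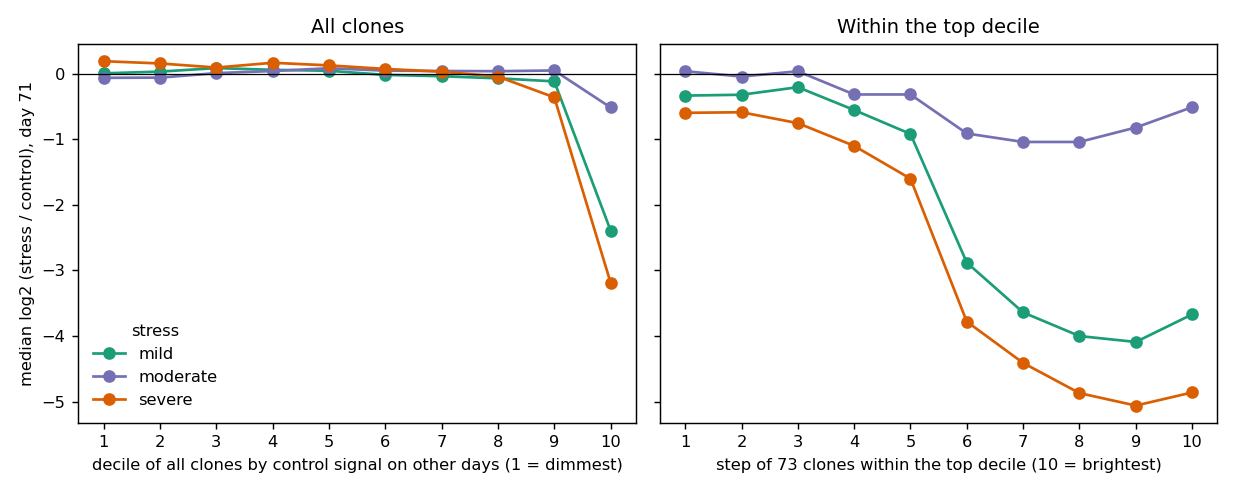
Median log2 ratio on day 71 by stress level, for deciles of all clones ordered by control intensity on the other days (left) and for 10 steps of 73 clones within the top decile (right). The medians of the first 8 deciles lie within 0.2 of 0, in part because the loess curve was fitted to these clones. The largest fall comes within the top decile, where severe stress reaches -5.06 and moderate stress no lower than -1.04.

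The bright clones did not move as one. The mean over the 3 arrays was -2 or lower for 376 of the 730, between -0.5 and 0.5 for 164, and 0.5 or higher for 67; it was 1 or higher for 0. The 376 had median log2 ratios of -3.90, -1.22 and -4.87 under mild, moderate and severe stress, and these clones were sorted by those very values. Their median percentile in the stress channel of other days, which the sorting did not use, was 94.5. On day 71 that percentile, which is part of the sorted ratio, was 71.8, 88.7 and 62.2 on the mild, moderate and severe arrays. For the 164 clones near 0 the median stress percentile was 97.1, 96.6 and 97.3 on day 71, and 87.8 on the other days. In the control channel of other days the 376 were also brighter, at a median percentile of 96.6, against 89.9 for the 164. The day 71 percentiles of both groups follow in part from the sorting and are a description. Under severe stress 184 of the 376 were not above the empty spots in the stress channel, which means not above the 95th percentile of the array's own 816 unprinted positions. Of the 376, 37 were MK, 92 NL_ and 247 NL clones, printed in all 12 rows of print blocks. The top decile held 37 MK, 167 NL_ and 526 NL clones, so all its MK clones were among them. MK clones were printed in rows 9 to 12, where clones outside the top decile also had medians below 0 at each level. The part of the print position in these counts was not tested.

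The set of brightest clones in the stress channel changed with this. Of the 73 brightest clones in stressed leaves on day 71, 4, 27 and 2 under mild, moderate and severe stress were among the 73 brightest in stressed leaves of the other days. Arrays of the other days, each set against the days other than its own, shared between 11 and 50, with a median of 41. In the control channel the day 71 arrays shared 50, 42 and 55 of 73, against 30 to 57 on the other days. Between levels of day 71, mild and severe stress had 38 of their 73 brightest stress-channel clones in common, mild and moderate 22, and moderate and severe 17, where pairs of levels on other days had 9 to 57, with a median of 51. The control channels of the same pairs shared 43, 31 and 32 of 73, where pairs on other days shared 37 to 58. Both pairs with the moderate array thus lay below the other days in the control channel too. These overlaps compare channels of different arrays and have no test.

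**Figure D3:**
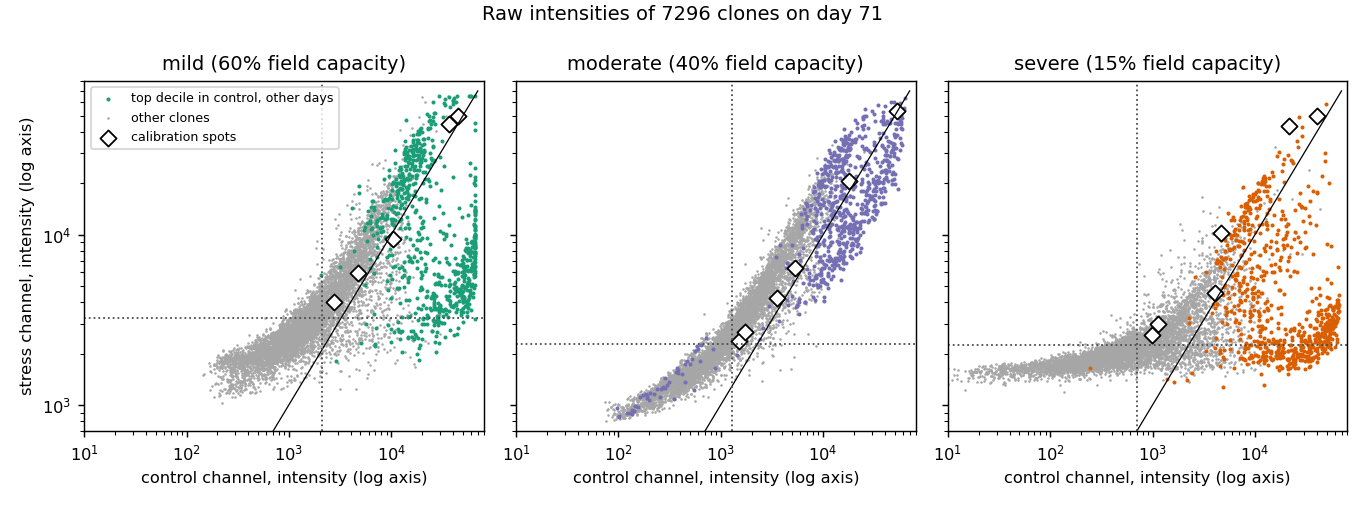
Stress-channel against control-channel raw intensity (both log axes) of each clone on the mild, moderate and severe arrays of day 71, with the 730 clones brightest in control leaves of other days in colour, calibration control spots as diamonds, equal intensity as a line and the 95th percentile of the empty spots as dotted lines. The coloured clones split into an upper arm near the other clones and a lower arm, which on the severe array reaches the level of the empty spots; 24 clones with a control intensity under 10 on the severe array are not drawn.

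With the 3 levels as repeats, no single clone passed the test of stress against control on day 71. limma called 0 clones (0%) at an adjusted p of 0.05, and the smallest adjusted p was 0.0697. At an unadjusted p under 0.05 there were 1839 clones (25.2%), 547 higher (7.5%) and 1292 lower (17.7%). The arrays differed in spread: the SD of the log2 ratios was 1.12, 0.50 and 1.40 on the mild, moderate and severe arrays. Without the moderate array 869 clones passed, 23 higher and 846 lower, and after scaling the 3 arrays to equal spread 1025 passed, 101 higher and 924 lower. The clones below are therefore described by their values. They are the 10 lowest and 10 highest means among clones with the same sign on 3 of 3 arrays and in both duplicate spots and with at least 1 channel above the empty spots on 3 of 3 arrays. These conditions held for 1151 lower and 790 higher clones.

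The 10 lowest clones had mean log2 ratios from -4.49 to -4.24, fitted folds of 19.0 to 22.5, and 9 of them belonged to the top decile. Without background correction the means were -3.31 to -3.05, folds of 8.28 to 9.94, so the size depends on the correction. Their log2 ratios ran from -5.38 to -4.54 under mild, from -2.49 to -1.60 under moderate and from -6.66 to -5.78 under severe stress. The order of the levels did not follow the depth of drought, since moderate stress had the smallest change. These clones were chosen by the same values, and the moderate array also had the smallest spread over all clones. Lower by 8-fold or more were 374 of 7296, 2 of 7294 and 481 of 7296 clones under mild, moderate and severe stress. limma gave adjusted p-values from 0.103 to 0.105 for these means. In 9 of the 10 the stress channel of the severe array was not above the empty spots, so the fitted means are no exact folds and the order among the 10 is not read. A bound there is the raw control intensity over the raw stress intensity or the 95th percentile of the empty spots, whichever was higher, with no correction for dye.

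NL47_D11, an NL clone in print row 7, had stress intensities of 2583, 7705 and 1748 under mild, moderate and severe stress, against 41050, 20800 and 24370 in the control channel. Its log2 ratios were -5.38, -2.14 and -5.95, a mean of -4.49 ± 2.06 (SD, n = 3, adjusted p = 0.103 with limma). The stress signal was above the empty spots under moderate stress only. The raw signal was at least 12.6-fold lower under mild and at least 10.8-fold lower under severe stress. On the other 20 arrays its ratio lay between -3.88 and 0.43, so the moderate value fell inside that range.

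NL_6_79, an NL_ clone in print row 7, had stress intensities of 4129, 12320 and 1687 under mild, moderate and severe stress, against 51110, 31400 and 34520 in the control channel. Its log2 ratios were -4.70, -1.76 and -6.66, and its raw signal was at least 15.3-fold lower under severe stress. All 3 control values were above all 3 stress values. On the other days this clone ranked alike in both channels, at mean percentiles of 96.6 in stressed and 97.0 in control leaves. On day 71 it stood at percentiles 64.8, 90.2 and 14.0 in stressed leaves and at 97.8, 97.9 and 97.5 in control leaves.

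NL_9_70, in print row 8, had log2 ratios of -4.54, -2.12 and -6.09 under mild, moderate and severe stress, while its range on the other 20 arrays was -0.86 to 0.81. All 3 day 71 values lay below every other array. The same held for NL_19_40, at -4.90, -2.12 and -5.87 against -1.18 to 0.76, and for NL_19_2, at -4.89, -2.0 and -6.08 against -1.30 to 1.05. MK_PG8_F05, in print row 12, was the 1 clone of the 10 outside the top decile. Its log2 ratios were -4.68, -2.49 and -5.85, and no stress channel of day 71 was above the empty spots. With a loess curve per print block its mean was -1.60, against -4.34 with 1 curve per array. The remaining clones were NL48_F10, NL_15_4, NL_7_87 and NL51_E07, with means of -4.40, -4.29, -4.29 and -4.24.

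The 2 clones with the smallest unadjusted p had no stress channel above the empty spots on day 71, so their ratios are differences from the floor of that channel. MK_PG8_G11 had log2 ratios of -3.64, -3.16 and -3.47 under mild, moderate and severe stress (mean -3.42 ± 0.25, SD, n = 3, adjusted p = 0.0697 with limma). MK_PG7_G12 had -3.0, -3.21 and -2.95 (adjusted p = 0.0697 with limma). Both were printed in row 11. The raw signal of MK_PG8_G11 was at least 3.25-fold, 2.11-fold and 1.64-fold lower under mild, moderate and severe stress, and that of MK_PG7_G12 at least 2.86-fold, 3.70-fold and 2.65-fold.

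Higher clones changed less. The 10 highest lay 2.23-fold to 3.13-fold above control on average, with limma adjusted p-values from 0.105 to 0.299. Their folds were 1.91 to 2.70 without background correction and 1.86 to 3.51 with a loess curve per print block. All 10 were NL clones of print rows 1 to 8, and 0 belonged to the top decile. The severe array carried most of the change. The log2 ratios ran from 0.07 to 1.41 under mild, from 0.45 to 1.27 under moderate and from 2.00 to 3.75 under severe stress. The 10 were chosen by the mean of these values, and the severe array had the widest spread over all clones. Calibration control spots, made to be equal in both channels, also stood higher on the severe array. Their normalized medians were -0.544, -0.415 and 0.673 under mild, moderate and severe stress. The part of this shift in the ratios of the 10 clones was not tested. Of all clones, 2.45%, 0.370% and 4.25% were higher by 2-fold or more under mild, moderate and severe stress. With 1 array per level, level and array cannot be told apart.

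NL22_D07, in print row 3, had stress intensities of 12750, 10720 and 9264 under mild, moderate and severe stress, against 4809, 2956 and 2035 in the control channel. Its log2 ratios were 0.95, 1.14 and 2.27 (mean 1.45 ± 0.71, SD, n = 3, adjusted p = 0.105 with limma). Stress exceeded control on all 3 arrays, and both channels were above the empty spots on each. NL15_C07 had ratios of 1.04, 0.85 and 2.58, and NL45_D04 of 0.72, 1.06 and 2.54. NL52_H11 stood at 0.07 and 0.45 under mild and moderate stress and at 3.21 under severe stress. For NL47_C10 no control channel was above the empty spots, so its fitted mean of 1.65 is no exact value. It had stress intensities of 3503, 3550 and 8875 under mild, moderate and severe stress, against 1465, 1197 and 697.6 in the control channel. The other members were NL19_B08, NL14_B04, NL21_G06, NL52_E07 and NL6_D07, with mean log2 ratios of 1.58, 1.37, 1.25, 1.18 and 1.16. The control channel was above the empty spots on 1 of 3 arrays for NL14_B04 and on 2 of 3 for NL19_B08 and NL6_D07. These 3 and NL15_C07 were printed in row 1, where clones outside the top decile had a median of 0.62 under mild stress.

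**Figure D4:**
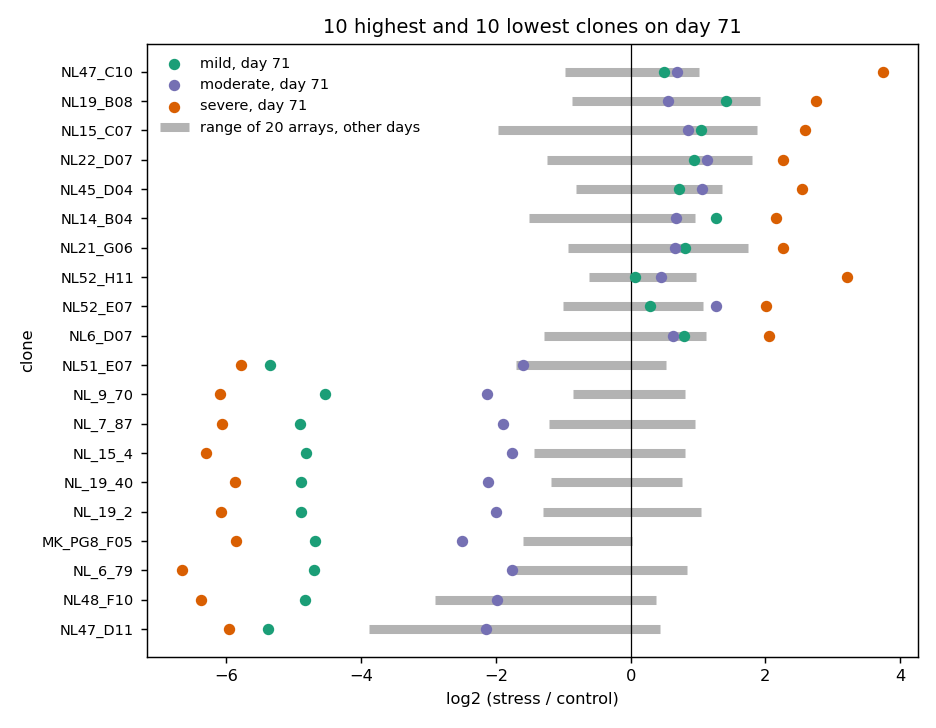
Log2 ratio of stress over control for the 10 highest clones (upper rows) and the 10 lowest (lower rows) on the mild, moderate and severe arrays of day 71 (points), with the range over the 20 arrays of other days (grey bars). The lowest clones lie between -6.66 and -1.60, and the highest are set apart from the bars mainly by the severe array, at 2.00 to 3.75.

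The brightest clones of stressed leaves on day 71 were read next. All 73 clones with the highest mean stress-channel percentile on day 71 came from the top decile of control leaves on other days. They were chosen by the stress channel, which is part of the ratio, so their ratios are a description. None of the 73 was lower by 4-fold or more, and 55 had a mean ratio above 0. The set held 61 NL, 12 NL_ and 0 MK clones, where the top decile held 526, 167 and 37. NL41_F12 led it, with stress intensities of 65250, 58040 and 46060 under mild, moderate and severe stress, against 44170, 33980 and 22660 in the control channel. NL52_D11 had 59930, 60340 and 27940 in stressed leaves, against 25700, 49130 and 19330 in control leaves. Its log2 ratios of 0.52, 0.49 and 0.73 were close together. The normalized log2 ratios of NL41_F12 were -0.19, 0.86 and 1.25, thus below 0 under mild stress, and 1 of its spots was saturated. Within the top decile the highest means were those of NL21_F06 at 0.88 and NL41_H12 at 0.87, so none reached 2-fold.

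Plates of origin differed in how many of their bright clones fell. Names point to 74 plates with at least 1 clone in the top decile, and 39 of them had 10 or more. The median of such a plate's bright clones was lower by 4-fold or more on 18 plates and above -0.5 on 7. On NL_15 12 of 15 bright clones had a mean of -2 or lower, and on NL16 13 of 16. On NL50 0 of 13 did. These counts describe the day 71 values and were not tested.

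Whether the ratio on day 71 differed from that on other days was tested over all 23 arrays in a model with a term for the level, in which arrays of the same day were allowed to correlate (estimated at 0.21). Day 71 is 1 day, and the spread in this model came from all 23 arrays, 20 of them from other days. The p-values thus rest largely on the spread of the other days. Age and days of treatment rose together, so they cannot be told apart. limma called 578 clones (7.92%), of which 573 were lower (7.85%) and 5 higher (0.0685%) on day 71 than on the other days. Of the lower clones, 388 belonged to the top decile. That was 53.2% of its clones, and 91.8% of its brightest step of 73, against the 7.85% over all clones. In the 573 the median log2 ratio was -3.54, -1.18 and -4.30 under mild, moderate and severe stress on day 71. The call used these values, so the medians are a description. On the severe array 332 of them were not above the empty spots in the stress channel. Without the severe array of day 71 the test called 261 clones and without the mild array 378, so both arrays carried much of the count. The arrays had been quantified in separate sessions, and within the session that held days 59 to 71 the test called 928 clones, 75 higher and 853 lower.

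The 5 lowest called clones were all NL_ clones. NL_6_79 differed by -4.28 (SE 0.59, adjusted p = 2.49e-05 with limma) from a mean of -0.09 on the other days. NL_9_70 differed by -4.16 (SE 0.48, adjusted p = 8e-06 with limma). Its 3 ratios of day 71 had an SD of 2.0, and against control on that day its adjusted p was 0.103 with limma. NL_8_45 differed by -4.10, NL_15_4 by -4.10 and NL_15_85 by -4.09. NL_8_45 had day 71 ratios of -4.62, -1.56 and -5.91 under mild, moderate and severe stress, and NL_15_85 of -4.16, -1.79 and -6.62. All 5 kept the same order of levels, with moderate stress nearest to 0. In all 5 the severe stress channel was not above the empty spots, so these differences are fitted values and no exact sizes.

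The 5 called higher clones were NL clones of print rows 6 to 8 with modest ratios on day 71 and mean ratios below 0 on other days. NL47_H09 had log2 ratios of 0.42, 0.69 and 0.90 under mild, moderate and severe stress, against a mean of -0.90 on the other days (difference 1.57, SE 0.49, adjusted p = 0.0442 with limma). NL50_E07 had 1.58, 0.62 and 1.08, against -0.26 (difference 1.36, adjusted p = 0.024). NL40_F05 differed by 1.32, NL41_B01 by 1.17 and NL53_C04 by 1.10. Each was above 0 on 3 of 3 arrays of day 71, which follows in part from the call. Of 7294 clones with a mean, 1948 were above 0 on 3 of 3 arrays and in both duplicate spots. The count of higher clones changed with the processing, from 0 without the severe array to 157 in the authors' deposited value table.

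No clone passed a test for a ratio that changes with the depth of drought. A slope on field capacity over the 3 arrays called 0 clones (0%), with a smallest adjusted p of 0.804 in limma. At an unadjusted p under 0.05 there were 309 clones (4.24%). By the size of the moderated statistic, NL8_E02 and NL10_C08 were lower with deeper drought. NL8_E02 had log2 ratios of 1.61, 0.44 and -1.75 under mild, moderate and severe stress, and NL10_C08 of 1.85, 0.69 and -1.49. NL_9_77, at -0.18, 0.48 and 2.44, and NL_13_46, at -1.08, -0.47 and 1.22, were higher with deeper drought. All 4 had an adjusted p of 0.804 in limma. Each level had 1 array, so level and array cannot be told apart.

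Control spots printed among the clones were read for the same arrays. Their names are those of yeast intergenic control sequences, for which a leading c marks calibration controls, made to be equal in both channels, r ratio controls and n negative controls. The labels used here do not state that control RNA was added. Spots of 24 control names were present, and 11, 15 and 15 names under mild, moderate and severe stress were above the empty spots in the stress channel. Before loess, calibration spots above the empty spots in both channels (5, 6 and 6 names) had medians of 0.05, 0.03 and 0.33 in log2 ratio under mild, moderate and severe stress. The 730 bright clones had -1.86, -0.22 and -3.63 on the same scale. Bright clones thus lay -1.91, -0.26 and -3.96 from the calibration spots, and on 19 arrays of other days this difference was between -1.0 and 1.60. The brightest calibration control, cYIR01, had 49610, 53320 and 49540 in the stress channel, against 44790, 52350 and 40750 in the control channel. The next brightest, cYIR02, had 44810, 20810 and 43360 in the stress channel, against 36950, 17710 and 21660. On the severe array cYIR02 and cYIR04 had log2 ratios of 0.95 and 0.88 before loess, higher in the stress channel.

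Of the ratio controls, 4 names were above the empty spots in both channels on all 3 arrays. rYIR08 had normalized log2 ratios of 2.10, 1.82 and 4.35 under mild, moderate and severe stress, and rYIR07 of -3.08, -3.09 and -1.45. rYIR04 had 1.16, 0.22 and 2.54. rYIR03 had -1.29, -1.53 and 0.16 after loess, but -0.95, -0.93 and -0.22 before it. Its sign thus turned on the severe array only after normalization. The severe array had the highest ratio for all 4. After loess the calibration spots had medians of -0.54, -0.41 and 0.67. Centred on them, the median of all clones was 0.50, 0.42 and -0.65 under mild, moderate and severe stress, and the bright clones stood at -1.85, -0.10 and -3.86. With that centring limma called 561 clones against control on day 71, 1 higher and 560 lower. The negative controls nYIR1 and nYIR2 were above the empty spots in neither channel on any of the 3 arrays.

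Depth, position and array quality moved with some of these values. Stress-channel empty spots had medians of 1384, 1310 and 1696 under mild, moderate and severe stress, against 304.1, 436.3 and 167.0 in the control channel, so the stress channel had the higher floor. The control median of the severe array over clones, 691.1, was below the 822.7 to 77820 of the other days. The upper end came from the mild array of day 45. Its stress median of 98364 lies above the saturation value of 65535, so its intensity scale differed. The next highest control median was 5556.8, on the mild array of day 59. Duplicate spots correlated across clones within an array at 0.971, 0.887 and 0.948. Saturated clone spots numbered 9, 0 and 0 in the stress channel and 84, 0 and 6 in the control channel. On the moderate array 4 neighbouring print blocks were dim in both channels. Their 648 clones had a median control intensity of 298.6, against 1610 elsewhere, and 44 of their 70 bright clones were not above the empty spots in the control channel. In these blocks the bright clones had a median ratio of -0.01 on the moderate array, against -2.58 on the mild and -3.68 on the severe array. Outside them the medians were -2.32, -0.56 and -3.11 under mild, moderate and severe stress. The part of these features in the ratios was not tested.

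**Figure D5:**
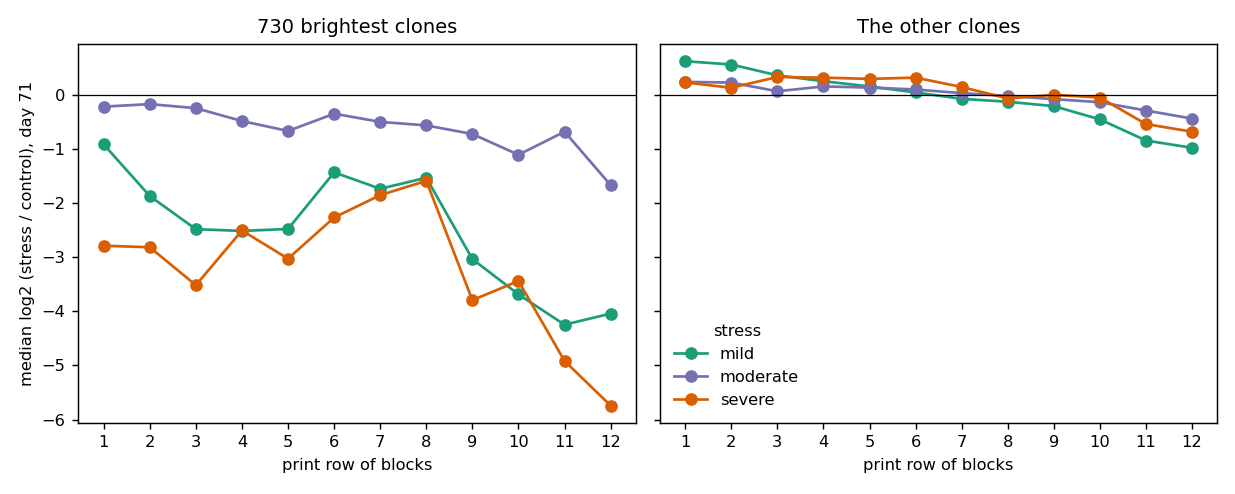
Median log2 ratio on day 71 by print row, for the 730 clones brightest in control leaves of other days (left) and all other clones (right), by stress level. The other clones fall from 0.62 in row 1 to -0.98 in row 12 under mild stress, while the bright clones lie below 0 in all 12 rows at each level.

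The ratio also varied with the place on the array. Clones outside the top decile had medians of 0.62, 0.24 and 0.23 under mild, moderate and severe stress in print row 1, against -0.98, -0.44 and -0.68 in row 12. The clone sets were printed in different rows. MK clones, in rows 9 to 12, had medians of -0.70, -0.26 and -0.42, NL_ clones of -0.32, -0.10 and -0.10, and NL clones of 0.19, 0.12 and 0.18. With a loess curve per print block these set medians lay between -0.06 and 0.05. The bright clones were below 0 in every row, from -4.25 to -0.92 under mild and from -5.74 to -1.59 under severe stress. With a loess curve per print block their medians were -1.21, -0.31 and -1.83, and without background correction -2.08, -0.51 and -1.85. The direction held at each level, and the size moved by over 1.5 times in log2. In the authors' deposited value table, whose ratios are centred per spot within each level, the 702 bright clones it holds had day 71 medians of -1.38, -0.87 and -2.58. Scanner ratios centred alike had -1.50, -0.289 and -2.08 for the bright clones, so the moderate values differed most in proportion. The direction of that table was itself set from the scanner ratios. In the test against the other days, 11.98% of MK, 8.79% of NL_ and 6.51% of NL clones were called lower, beside 7.85% overall.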

How the data were processed

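Leaf RNA of stressed and control plots was measured on 2-colour spotted arrays. Per the file headers, the deposited intensity columns come from QuantArray histogram quantification and hold each spot's raw intensity and local background on a linear scale; no normalization of them is recorded there. The authors' deposited values were read as log2 ratios centred per spot within each level, with earlier normalization unstated. Their column medians of day 71 were 0.08, 0.01 and -0.06 under mild, moderate and severe stress. For the 6480 clones of print rows 1 to 10 their direction was taken from correlations of 0.898, 0.649 and 0.704 with the scanner ratios centred alike. A correlation does not give the scale, and a direction set this way is no separate evidence. From the intensities, the background correction was normexp (offset 50). Dye bias was removed array by array by a single loess fit to the clone spots (span 0.3, 4 iterations; control, empty and ignored spots at weight 0), and duplicate spots were averaged. All 7296 clones were tested with limma 3.58.1 in R 4.3.3 (plots with Python 3.11.15 and matplotlib 3.10.9), Benjamini-Hochberg adjustment and a threshold of 0.05; the code was tested on simulated data. The number of arrays limits the precision, and p-values measure the spread between levels or days, which may be technical. The clone lists, tests and comparisons were chosen with earlier results of these data known. The rule for named clones asked for called clones; with 0 called against control, its other conditions were applied without the call, a choice made after the values were seen. The top decile, its steps, the control spots and the plates were also chosen after the values were seen.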

Additional observations from a re-analysis of the deposited data

Results flagged for a closer look

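The difference between day 71 and the other days in the ratio of stress over control passed the limma test for 578 clones, of which 573 were lower and 5 higher on day 71. It is listed because the same contrast gave different values on different days. Age, days of treatment and the arrays of a day changed together, so they cannot be told apart.

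Control spots, which the main tests of clones did not use, gave signal above the empty spots in the stress channel for 11, 15 and 15 of 24 control names under mild, moderate and severe stress. The values of the calibration and ratio controls are those given with the results above.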

How the results depend on the processing

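Against control on day 71, 0 clones were called in limma, with 1839 at an unadjusted p under 0.05. The count stayed at 0 without background correction, with print-tip loess, median centring or array weights, over clones above the empty spots, and, chosen after seeing the data, with empty spots as background or without the dim blocks of the moderate array. It was 1025 with scaling between arrays, 1 with a trend in the prior variance, 1357 with the spread taken over all days and 561 centred on calibration spots; leaving out 1 array gave 0 to 869, the highest without the moderate array. For day 71 minus the other days, the 578 calls became 928 within the same quantification session, and 261 to 689 with 1 array of day 71 left out (378 without mild, 261 without severe). The other settings gave 410 to 779. The split of higher and lower calls moved with the authors' value table, 157 and 476, against 5 and 573. Of the 456 calls of print rows 1 to 10, 411 were called in that table, and with print-tip loess 442 of the 578 were. The slope on field capacity had 0 calls in all settings run; with an array left out it has no spread, so it was not run. The means of the 10 lowest clones, -4.49 to -4.24, became -3.31 to -3.05 without background correction, fitted folds of 8.28 to 9.94, and MK_PG8_F05 reached -1.60 with print-tip loess and -6.24 with empty spots as background. Each log2 ratio pairs stress and control of 1 array. No further pairing was possible because each level and day had 1 array and the labels give no replicate numbers. High empty-spot signal in the stress channel limits the low ratios to bounds.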
